A study of Mus musculus with 6 samples.

Results

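Genes that encode regulators of undifferentiated spermatogonia were followed in RNA-seq data from whole mouse testes at 5 days postpartum (dpp). They were *Zbtb16*, *Sall4*, *Foxo1*, *Taf4b*, *Utf1*, *Sox3*, *Neurog3*, *Lin28a*, *Nanos2* and *Nanos3*, 10 of the 54532 genes in the deposited table, picked by gene name as regulators of stem and progenitor spermatogonia other than GDNF targets. The 6 samples were 3 Ctrl testes and 3 conditional knockout (cKO) testes. The cKO mice were *Vasa*-Cre *Srsf1* Fl/del, in which a Cre driven from the germ-cell gene *Vasa* (*Ddx4*) cuts out exons 2 to 4 of *Srsf1*. Somatic cells of the testis keep the Fl allele, while this genotype gives their other allele as deleted. Whether Ctrl mice carried such an allele was not given in the sources used here. Loss of *Srsf1* in germ cells and a lower dose in somatic cells thus cannot be told apart in whole testes. The labels give the other genotype only as Ctrl, the strain of the sequenced mice was not given in the sources used here, and the study describes 3 biological replicates per condition. SRSF1 is an RNA-binding protein of pre-mRNA splicing, and comparing cKO with Ctrl testes asked which testis transcripts differ when it is deleted in the germ line.

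In the newborn testis, germ cells called prospermatogonia move to the basement membrane of the seminiferous cords and form the first spermatogonia. Undifferentiated spermatogonia then either renew themselves as stem cells or pass through a progenitor state towards differentiation. The choice is held by DNA-binding factors (PLZF, encoded by *Zbtb16*, SALL4, FOXO1, SOX3 and NEUROG3), by parts of the transcription machinery and chromatin (TAF4B and UTF1), and by proteins that act on RNA (LIN28A, NANOS2 and NANOS3).

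Reads assigned to genes, recovered from the deposited values, numbered between 15448191 and 18964743 per sample. Across genes, Pearson correlations of replicates lay between 0.970 and 0.981, and replicates differed by more than sampling noise. Each was counted as a replicate because the study describes biological replicates, which the spread alone cannot show. *Srsf1* itself was lower in every cKO sample, at 86.6 ± 3.85 FPKM (fragments per length of gene and per depth of library; SD, n = 3) in Ctrl and 47.7 ± 3.48 FPKM (SD, n = 3) in cKO. The labelled tissue was checked against marker genes. Sertoli, Leydig and germ-cell markers were all detected. One protocol field of the labels names the retina, but the 10 retina markers summed to between 0.380 and 0.845 FPKM per sample, with *Crx* and *Nrl* at 0 in all 6 samples. Ctrl 2 stood apart among the Ctrl samples by high germ-cell RNA. Its 15 germ-cell markers were at a median of 2.32 times their mean in Ctrl 1 and 3 (range 1.68 to 3.18), and Ctrl 2 was the highest Ctrl sample for 10 of the 10 regulators, so each result below is also given without it where that changes the reading.

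The regulators differ in gene structure, which is given here because the deleted gene encodes a splicing factor. *Sox3* and *Nanos2* are single-exon genes, the coding sequence of *Neurog3* lies in 1 exon, that of *Foxo1*, *Utf1* and *Nanos3* in 2 exons, that of *Sall4* and *Lin28a* in 4, that of *Zbtb16* in 6 and that of *Taf4b* in 15. Of the 10 genes, 6 matched the RefSeq promoter table (GRCm38.p6), which holds 300 bases around the start of each gene. Bases upstream of the first exon of the coding transcripts are printed for *Foxo1* and *Utf1*, the regulators closest to or above their Ctrl level in the cKO testes, and for *Nanos2* and *Nanos3*, which are paralogs. Capitals mark matches on either strand to the searched motifs that occur in these stretches, which were GGGCGG (GC box), CCAAT (bound by NF-Y), TTCGCGC (E2F) and ACAATG (SOX). The *Foxo1* stretch is chr3:52268087-52268335 on the + strand, that of *Utf1* chr7:139943606-139943788 on the + strand, that of *Nanos2* chr7:18987274-18987399 on the + strand and that of *Nanos3* chr8:84176553-84176802 on the − strand. The *Nanos3* stretch lies inside the annotated gene, since a non-coding transcript of *Nanos3* starts further upstream and has an intron there.
Foxo1: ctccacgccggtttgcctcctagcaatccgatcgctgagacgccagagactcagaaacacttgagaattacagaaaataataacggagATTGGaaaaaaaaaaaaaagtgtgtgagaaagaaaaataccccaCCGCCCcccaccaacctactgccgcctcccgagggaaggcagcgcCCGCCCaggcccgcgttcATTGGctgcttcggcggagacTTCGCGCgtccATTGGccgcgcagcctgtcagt
Utf1: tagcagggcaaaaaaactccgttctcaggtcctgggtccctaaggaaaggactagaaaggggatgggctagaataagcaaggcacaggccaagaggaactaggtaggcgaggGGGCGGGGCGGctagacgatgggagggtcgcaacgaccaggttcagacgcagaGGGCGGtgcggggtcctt
Nanos2: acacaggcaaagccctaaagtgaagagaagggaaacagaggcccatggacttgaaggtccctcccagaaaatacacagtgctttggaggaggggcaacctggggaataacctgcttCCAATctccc
Nanos3: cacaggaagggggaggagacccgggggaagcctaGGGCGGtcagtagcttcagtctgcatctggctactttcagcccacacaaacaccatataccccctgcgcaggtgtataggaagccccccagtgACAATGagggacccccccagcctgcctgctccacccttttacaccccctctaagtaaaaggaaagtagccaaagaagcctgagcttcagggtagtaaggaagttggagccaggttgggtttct

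The windows spanned a wide range of CpG content, with 31 CpG in that of *Foxo1*, 19 in *Neurog3*, 17 in *Utf1*, 10 in *Lin28a*, 3 in *Nanos3* and 0 in *Nanos2*, against a median of 7 over the 32851 windows of the table (quartiles 3 and 20). The GC box occurred in the windows of *Foxo1*, *Lin28a*, *Utf1* and *Nanos3*, and in 35.7% of all windows. The capital run of *Utf1* holds overlapping copies of it. The CCAAT box occurred in *Foxo1*, *Nanos2* and *Neurog3*, and in 37.4% of all windows. The E2F motif occurred in *Foxo1* and in 1.59% of all windows, the TATA box TATAAA in *Nanos2* and in 13.6%, and the SOX motif in *Lin28a* and *Nanos3* and in 12.6%. The TATA box of *Nanos2* lay in the part of its window that is not printed. Neither the FOXO motif TGTTTAC, found in 3.65% of all windows, nor the E-box CACGTG, found in 7.15%, was in any of the 6. *Foxo1* and *Nanos2* thus lay at the ends of CpG content, and both *Nanos* paralogs were below the median.

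RT-qPCR primers of the study are shown for *Zbtb16*, *Sall4* and *Nanos3*, to give the stretch of mRNA that those assays read. They are printed 5′ to 3′, with capitals marking the bases of the *Nanos3* reverse primer that lie on its last exon, so that this primer spans the junction of exons 1 and 2. The *Zbtb16* pair lies in exons 6 and 7 of 7, at chr9:48659679-48659698 and chr9:48657265-48657284, and gives a product of 133 bases. The *Sall4* pair lies in exons 3 and 4 of 4, at chr2:168752545-168752564 and chr2:168750419-168750437, and gives 153 bases. The *Nanos3* forward primer lies in exon 1, at chr8:84176161-84176180, and the product is 134 bases. The pairs shown lie in coding sequence and cross an intron.
Zbtb16 forward: ggagacgcactacagggttc
Zbtb16 reverse: ggtacactggtatggcgagg
Sall4 forward: aacttctcgtctgccagtgc
Sall4 reverse: gcgggcggagttattgttg
Nanos3 forward: gtctactgctacaccacccg
Nanos3 reverse: CTGCCACTTTTGGAACctgc

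In cKO testes, 9 of the 10 regulators had all 3 samples below the lowest Ctrl sample, as 12.8% of the 16206 genes tested did, and *Utf1* overlapped between the groups. The cKO level ran from *Sox3*, at 4.99% of its Ctrl mean, through *Neurog3* (6.34%), *Nanos2* (10.7%), *Zbtb16* (18.8%), *Nanos3* (26.5%), *Lin28a* (29.3%), *Sall4* (39.3%) and *Taf4b* (45.4%) to *Foxo1* (78.7%). *Utf1* stood at 128% of Ctrl. Without Ctrl 2 all 10 percentages were higher, at 7.77% for *Sox3*, 14.1% for *Neurog3*, 16.1% for *Nanos2*, 24.7% for *Zbtb16*, 36.2% for *Nanos3*, 45.7% for *Lin28a*, 55.4% for *Sall4*, 56.1% for *Taf4b*, 85.2% for *Foxo1* and 256% for *Utf1*. Of the genes tested, 1.43% had a cKO mean of at most 25% of Ctrl, and *Sox3* and *Zbtb16* were among them. Because whole testes were sequenced, fewer cells of a type and less RNA per cell cannot be told apart in any of these values.

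Of the 10 genes, 8 reached a mean of 0.5 FPKM over the 6 samples and entered the test, which fitted log2(FPKM + 1) with limma over 16206 genes and so understates the differences of low genes. *Neurog3* and *Nanos2* did not reach it. *Sox3* reached it only through its Ctrl samples, with means of 8.36 FPKM in Ctrl and 0.417 FPKM in cKO, so its p-values are to be read with that limit. At a Benjamini-Hochberg adjusted p-value of 0.05, limma called 0 regulators lower and 0 higher, as it did for 0% of all genes tested. At an unadjusted p-value under 0.05, 6 of the 8 were lower and 0 higher, against 9.31% and 6.6% of all genes tested. Of the 8, 7 were lower without overlap between the groups, against 12.8% of all genes tested, and 0 were higher without overlap, against 10.3%. With the same test on the 13204 protein-coding genes, 3 regulators passed as lower (*Sox3*, *Zbtb16* and *Nanos3*), where 1.33% of genes did and 0.28% passed as higher. Limma voom on recovered reads called *Zbtb16* alone, where 0.358% of genes were called lower. With every gene of at least 10 reads in the voom fit, a setting added after the data were seen, *Sox3*, *Zbtb16*, *Taf4b* and *Nanos3* were called, where 0.863% of genes were. No setting called a regulator higher, while voom called 0.136% of genes higher and the voom fit from 10 reads 0.234%.

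**Figure D1:**
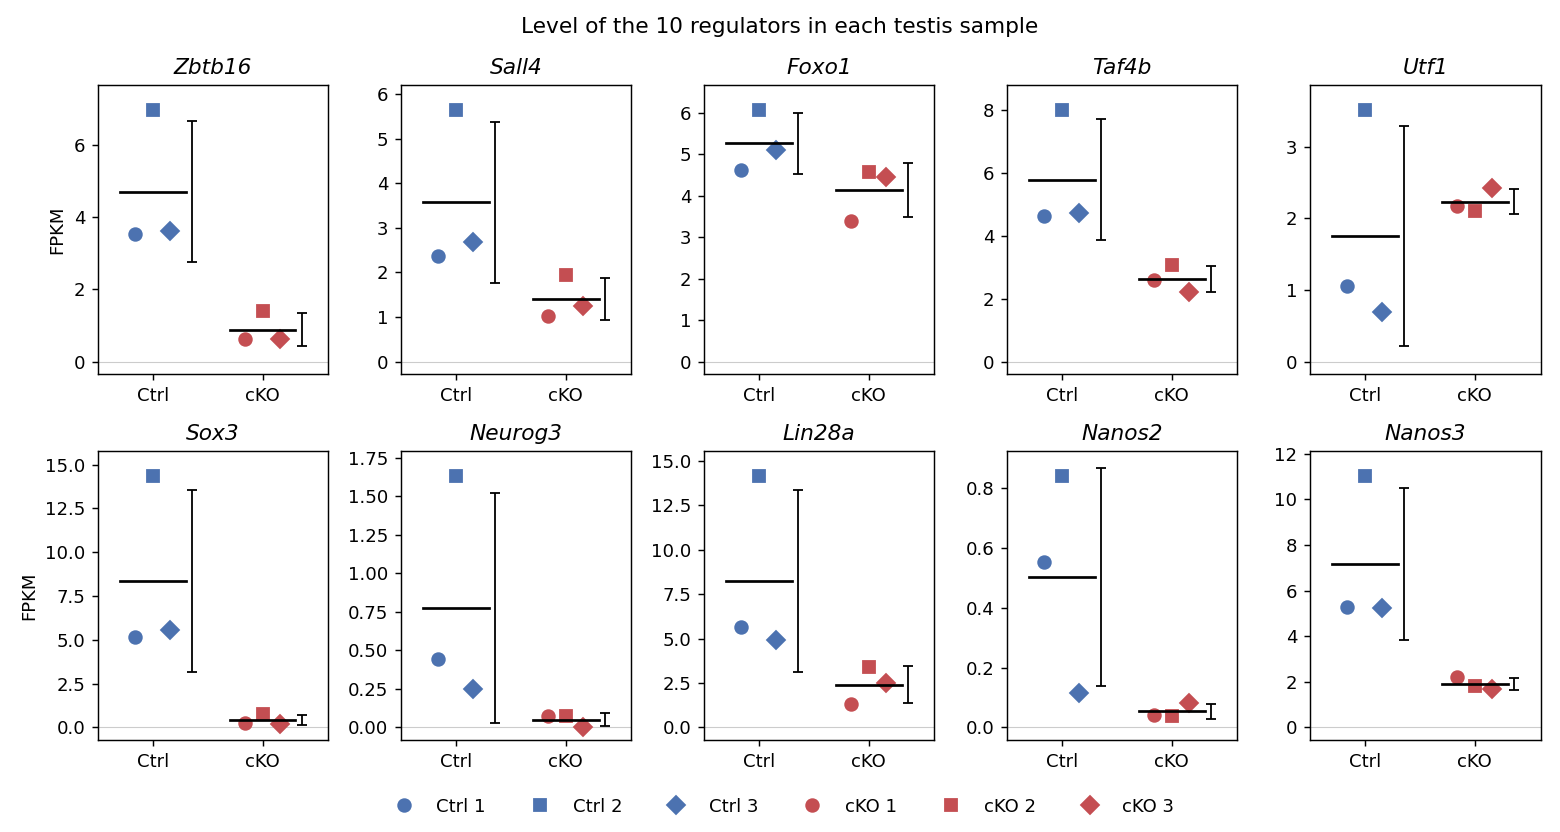
FPKM of each regulator (vertical axes, each with its own scale) in the 3 Ctrl samples (blue) and the 3 cKO samples (red), with the mean as a horizontal line and the SD as an error bar. Ctrl 2, the blue square, is the highest Ctrl sample in all 10 panels, and the red points lie below the blue ones in all panels but that of *Utf1*.

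*Sox3*, which encodes an HMG-box factor of the SOXB1 group needed for the progenitor state, showed the largest difference of the regulators. The FPKM of *Sox3* (ENSMUSG00000045179, chromosome X, 60891366 to 60893430, − strand, GRCm38) in Ctrl 1 to 3 were 5.18, 14.3 and 5.55, and those in cKO 1 to 3 were 0.277, 0.754 and 0.219. The highest cKO sample was far below the lowest Ctrl sample. The means were 8.36 ± 5.19 FPKM (SD, n = 3) and 0.417 ± 0.293 FPKM (SD, n = 3), a 20.05-fold difference that rests on 927 reads in Ctrl and 42 reads in cKO. Without Ctrl 2 the difference was 12.9-fold. On log2(FPKM + 1) the fold change was −2.61 (SE 0.351). Limma gave an adjusted p-value of 0.066, and of 0.017 when only protein-coding genes were tested. Voom, which does not use that pseudocount, gave −4.32 and an adjusted p-value of 0.056. Without Ctrl 2 the log2 fold change was −2.19 and the adjusted p-value of limma 0.040, so *Sox3* passed the threshold when the highest sample was left out.

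*Zbtb16* encodes PLZF, a zinc-finger repressor and the common marker of undifferentiated spermatogonia, needed to keep the stem cell pool. For *Zbtb16* (ENSMUSG00000066687, chromosome 9, 48654297 to 48836222, − strand), Ctrl samples 1 to 3 gave 3.54, 6.98 and 3.63 FPKM, against 0.614, 1.41 and 0.637 FPKM from cKO samples 1 to 3. Ctrl 2 and cKO 2 were the highest of their groups, and the groups did not overlap. The means were 4.72 ± 1.96 and 0.885 ± 0.451 FPKM (SD, n = 3 each), a 5.33-fold difference. Its log2 fold change of −1.57 (SE 0.260) had adjusted p-values of 0.092 in limma, of 0.025 with protein-coding genes alone and of 0.041 in voom. Of the regulators tested, *Zbtb16* was the one called in both of these settings.

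*Sall4* encodes a zinc-finger factor that works with the NuRD repressor complex and binds PLZF. In Ctrl testes 1, 2 and 3, *Sall4* (ENSMUSG00000027547, chromosome 2, 168748332 to 168767943, − strand) measured 2.38, 5.64 and 2.69 FPKM, and the cKO testes in the same order measured 1.02, 1.94 and 1.25 FPKM. The gap between the lowest Ctrl and the highest cKO sample was small, although the groups did not overlap. In limma, *Sall4* had a log2 fold change of −0.88 (SE 0.274) and an adjusted p-value of 0.212, which lay between 0.091 and 0.456 over the alternatives. Without Ctrl 2 the log2 fold change was −0.57, so the size of the *Sall4* difference depended on that sample.

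*Neurog3*, a basic helix-loop-helix factor of progenitors about to differentiate, was close to the detection limit. The FPKM of *Neurog3* (ENSMUSG00000044312, chromosome 10, 62133090 to 62134763, + strand) in Ctrl 1 to 3 were 0.443, 1.63 and 0.252, and those in cKO 1 to 3 were 0.0759, 0.0715 and 0. Behind these values stood 12, 52 and 7 reads in Ctrl and 2, 2 and 0 reads in cKO. The summed reads, scaled for depth, came to 6.096% of Ctrl, with a 95% exact interval of 1.62 to 16.3% that covers counting error only. In the added voom fit the log2 fold change was −3.47, with an adjusted p-value of 0.185. The value is uncertain for another reason, since 3 exons of *Fam241b* on the opposite strand overlap *Neurog3* and the strand setting of the counting was not given in the sources used here. *Fam241b* was at a mean of 3.10 FPKM in Ctrl and 1.38 FPKM in cKO.

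*Foxo1*, a forkhead factor that the PI3K-AKT pathway holds in the cytoplasm and that enters the nucleus in prospermatogonia, was the regulator least lower in cKO testes. For *Foxo1* (ENSMUSG00000044167, chromosome 3, 52268336 to 52353221, + strand), Ctrl samples 1 to 3 gave 4.63, 6.07 and 5.11 FPKM, against 3.40, 4.58 and 4.46 FPKM from cKO samples 1 to 3. The lowest Ctrl and the highest cKO sample were almost level, although the groups did not overlap. Limma gave a log2 fold change of −0.29 (SE 0.135), not past the threshold (adjusted p-value 0.358).

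*Taf4b* encodes a germ-cell form of a subunit of TFIID, the complex that recognises core promoters, and the mouse gene is needed to maintain spermatogenesis. In Ctrl testes 1, 2 and 3, *Taf4b* (ENSMUSG00000054321, chromosome 18, 14783245 to 14900359, + strand) measured 4.62, 7.997 and 4.72 FPKM, and the cKO testes in the same order measured 2.59, 3.06 and 2.21 FPKM. Its cKO samples lay close together, and all were below Ctrl. A log2 fold change of −0.88 (SE 0.199) was found for *Taf4b*, and the adjusted p-value was 0.132 in limma and 0.049 in the added voom fit. Without Ctrl 2 the log2 fold change was −0.65.

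*Utf1*, which encodes a chromatin-bound factor found in early undifferentiated spermatogonia, went against the other regulators. The FPKM of *Utf1* (ENSMUSG00000047751, chromosome 7, 139943789 to 139945112, + strand) in Ctrl 1 to 3 were 1.06, 3.51 and 0.688, and those in cKO 1 to 3 were 2.18, 2.10 and 2.43. The cKO samples hardly varied, and the Ctrl samples lay on both sides of them because Ctrl 2 was 4.02 times the mean of Ctrl 1 and 3. Limma gave a log2 fold change of 0.37 (SE 0.338) and an adjusted p-value of 0.625. Without Ctrl 2, *Utf1* was at 0.873 FPKM in Ctrl against 2.23 FPKM in cKO, with a log2 fold change of 0.79 and an adjusted p-value of 0.129. The size of this difference depended on single Ctrl samples in the other direction too, with a log2 fold change of 0.23 without Ctrl 1 and of 0.08 without Ctrl 3. *Utf1* is short and rested on between 14 and 82 reads per sample.

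Among the regulators that act on RNA, *Lin28a* encodes the protein that binds the let-7 precursor and blocks its maturation, and it marks progenitors. For *Lin28a* (ENSMUSG00000050966, chromosome 4, 134003330 to 134018841, − strand), Ctrl samples 1 to 3 gave 5.63, 14.1 and 4.95 FPKM, against 1.34, 3.42 and 2.49 FPKM from cKO samples 1 to 3. The groups did not overlap, but the Ctrl values spread widely. In limma its log2 fold change was −1.35 (SE 0.384; adjusted p-value 0.187), and without Ctrl 2 it was −0.93 (adjusted p-value 0.299).

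*Nanos3* and *Nanos2* encode zinc-finger proteins that bring target mRNAs to the CCR4-NOT deadenylase. NANOS2 acts in stem cells and NANOS3 in a wider set of undifferentiated spermatogonia. In Ctrl testes 1, 2 and 3, *Nanos3* (ENSMUSG00000056155, chromosome 8, 84173731 to 84185217, − strand) measured 5.28, 11.03 and 5.22 FPKM, and the cKO testes in the same order measured 2.20, 1.81 and 1.68 FPKM. The cKO samples were tightly grouped at 26.5% of the Ctrl mean. For the log2 fold change of −1.43 (SE 0.255) the adjusted p-value was 0.102 in limma, 0.031 with protein-coding genes alone and 0.064 in voom.

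The FPKM of *Nanos2* (ENSMUSG00000051965, chromosome 7, 18987400 to 18988962, + strand) in Ctrl 1 to 3 were 0.553, 0.840 and 0.116, and those in cKO 1 to 3 were 0.0407, 0.0383 and 0.0828. Ctrl 3 was near the cKO samples, and the values rest on 14, 25 and 3 reads in Ctrl and 1, 1 and 2 reads in cKO. The summed reads, scaled for depth, came to 10.3% of Ctrl with a 95% exact interval of 2.68 to 28.4% that covers counting error only. The added voom fit gave a log2 fold change of −2.56 and an adjusted p-value of 0.257. At this depth a difference of *Nanos2* could not be called.

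The order of the regulators by FPKM, a level per length, was not the same in the groups. In Ctrl testes the order from the highest mean was *Sox3*, *Lin28a*, *Nanos3*, *Taf4b*, *Foxo1*, *Zbtb16*, *Sall4*, *Utf1*, *Neurog3* and *Nanos2*, and the ranges of all neighbours overlapped. In cKO testes it was *Foxo1*, *Taf4b*, *Lin28a*, *Utf1*, *Nanos3*, *Sall4*, *Zbtb16*, *Sox3*, *Nanos2* and *Neurog3*. There the ranges did not overlap between *Foxo1* and *Taf4b* or between *Sox3* and *Nanos2*. *Sox3* thus had the highest mean level of the 10 in Ctrl and the eighth in cKO, whereas *Foxo1* went from the fifth place to the first.

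RNA of germ-cell marker genes moved with these differences. The 15 germ-cell markers, which include *Ddx4* and *Dazl*, were all lower in cKO testes with no overlap between the groups, as 12.8% of all genes tested were. The list was not restricted to genes expressed at every germ-cell stage. *Dazl*, which encodes an RNA-binding protein, was at 75.5 ± 39.2 FPKM (SD, n = 3) in Ctrl and 14.7 ± 6.16 FPKM (SD, n = 3) in cKO. *Ddx4*, which encodes an RNA helicase, was at 40.4 ± 21.4 and 11.1 ± 4.16 FPKM (SD, n = 3 each). The mean of the 15 markers, each taken relative to its Ctrl mean, came to 69.5, 162 and 68.9% for Ctrl 1 to 3 and to 19.4, 33.2 and 20.9% for cKO 1 to 3. Single markers stood between 15.03 and 35.4% of Ctrl in cKO testes, and their median log2 fold change was −1.71. By their means, *Sox3*, *Neurog3* and *Nanos2* were below that range, *Zbtb16*, *Nanos3* and *Lin28a* within it, and *Sall4*, *Taf4b*, *Foxo1* and *Utf1* above it. *Neurog3* and *Nanos2* rest on 4 cKO reads each. Their counting intervals of 1.62 to 16.3% and 2.68 to 28.4% reach into the marker range, so these 2 could not be placed below it.

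Each regulator was therefore also expressed relative to the mean log2(FPKM + 1) of the 15 markers in the same sample, and the groups were compared by an exact two-sided permutation test, which cannot go below p = 0.1 with 3 samples against 3. *Sox3* was lower in cKO on this measure too. Its relative level was −0.71, −0.50 and −0.61 for Ctrl 1 to 3 and −1.46, −1.62 and −1.66 for cKO 1 to 3. The difference was −0.97 (exact permutation p = 0.1), and Ctrl 2 did not stand apart from Ctrl 1 and 3. Such a difference without overlap was found for 0.154% of the 16206 genes tested, and *Sox3* was the only 1 of the 8 regulators to show it. Without a pseudocount the *Sox3* difference was −2.37 and again had no overlap, as 0.311% of the 15765 genes above 0 in all samples did. The size of the *Sox3* difference depended on the markers, and it was −0.63 relative to *Ddx4* and *Dazl* alone.

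*Zbtb16*, *Nanos3* and *Lin28a* overlapped between the groups on this measure. For *Zbtb16* the difference was 0.06 (exact permutation p = 0.9), but −0.44 without a pseudocount and 0.41 relative to *Ddx4* and *Dazl* alone, so its sign depended on the scale. For *Nanos3* it was 0.21 (exact permutation p = 0.5) and for *Lin28a* 0.29 (exact permutation p = 0.2). *Sall4* was higher relative to the markers by 0.76, *Taf4b* by 0.76, *Foxo1* by 1.35 and *Utf1* by 2.01 (exact permutation p = 0.1 for each), with no overlap. These 4 do not stand out in that direction, since 96.4% of all genes tested were higher without overlap relative to the markers, and 94.1% without a pseudocount.

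**Figure D2:**
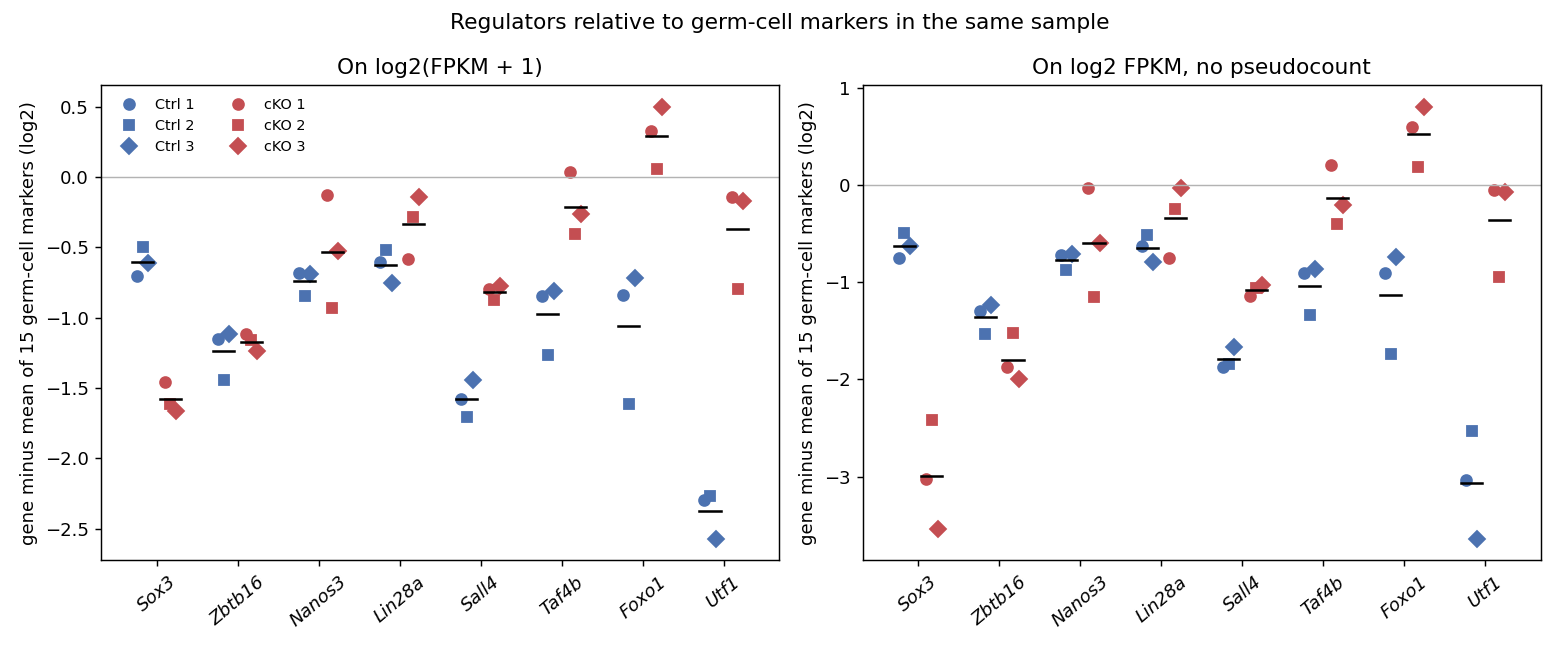
Level of the 8 tested regulators minus the mean of 15 germ-cell markers in the same sample, on log2(FPKM + 1) at left and on log2 FPKM without a pseudocount at right, with the group mean as a line. *Sox3* is the only gene whose 3 cKO samples (red) lie below its 3 Ctrl samples (blue) in both panels, and *Utf1*, *Foxo1*, *Taf4b* and *Sall4* lie above.

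Selected close paralogs of the regulators were compared next, such as the SOXB1 group for *Sox3* and *Zbtb32* for *Zbtb16*. Of 14 paralogs, 10 were tested, with a median log2 fold change of 0.17 against 0.0027 over all genes tested. Of these, 4 were lower without overlap and 2 higher, against 12.8% and 10.3% of all genes tested. Limma called 0 in either direction. At an unadjusted p-value of limma under 0.05, 4 were lower and 2 higher, against 9.31% and 6.6% of all genes tested. Among the lower ones, *Sall1* and *Lin28b* passed the filter of 0.5 FPKM only through their Ctrl samples. The counts of lower paralogs are to be read with that limit. The paralog with the lowest log2 fold change was *Zbtb32*, which encodes a relative of PLZF. Ctrl 1 to 3 had 3.09, 5.59 and 2.15 FPKM of *Zbtb32* and cKO 1 to 3 had 0.404, 0.838 and 0.549 FPKM, with a log2 fold change of −1.47 (adjusted p-value 0.102 in limma, 0.032 with protein-coding genes alone). The pattern of *Zbtb32* thus resembled that of *Zbtb16* in size and direction.

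*Sox2*, the SOXB1 paralog of *Sox3* and a factor of pluripotent and neural cells, had the highest log2 fold change of the paralogs. For *Sox2*, Ctrl samples 1 to 3 gave 0.0601, 0.255 and 0.176 FPKM, against 0.865, 1.397 and 1.13 FPKM from cKO samples 1 to 3. Every cKO sample was above every Ctrl sample, on 2 to 10 reads per Ctrl sample and 28 to 48 reads per cKO sample. Its log2 fold change of 0.87 (SE 0.154) had an adjusted p-value of 0.101 in limma and 0.027 with protein-coding genes alone. *Sox2* passed the filter of 0.5 FPKM only through its cKO samples, with means of 0.164 FPKM in Ctrl and 1.13 FPKM in cKO. Its p-values and its place among the higher paralogs are to be read with that limit. The third member of the group, *Sox1*, was at 0 reads in each Ctrl sample and at 6, 4 and 5 reads in cKO 1, 2 and 3. In Ctrl testes the level of *Sox3* was above that of *Sox2* in every sample, and in cKO testes below it in every sample.

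The remaining families were looked at after their values were seen. *Nanos1* was at 2.59 ± 1.24 FPKM (SD, n = 3) in Ctrl and 0.660 ± 0.0577 FPKM (SD, n = 3) in cKO, and thus lower without overlap, as *Nanos2* and *Nanos3* were. *Lin28b*, which also blocks let-7, was at 1.15 ± 0.566 and 0.235 ± 0.0513 FPKM (SD, n = 3 each), likewise lower without overlap. *Sall1* was lower, at 1.16 ± 0.635 and 0.388 ± 0.0960 FPKM (SD, n = 3 each), whereas *Sall2* overlapped, at 6.86 ± 1.30 and 7.95 ± 0.232 FPKM (SD, n = 3 each). *Taf4*, the broadly expressed counterpart of *Taf4b*, was higher in every cKO sample, at 5.87 ± 0.173 and 7.10 ± 0.629 FPKM (SD, n = 3 each; adjusted p-value 0.289 in limma). The level of *Foxo1* was below that of *Foxo3*, *Foxo4* and *Foxo6* in all samples. Those 3 FOXO genes had log2 fold changes between 0.17 and 0.35, with overlap in each.

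**Figure D3:**
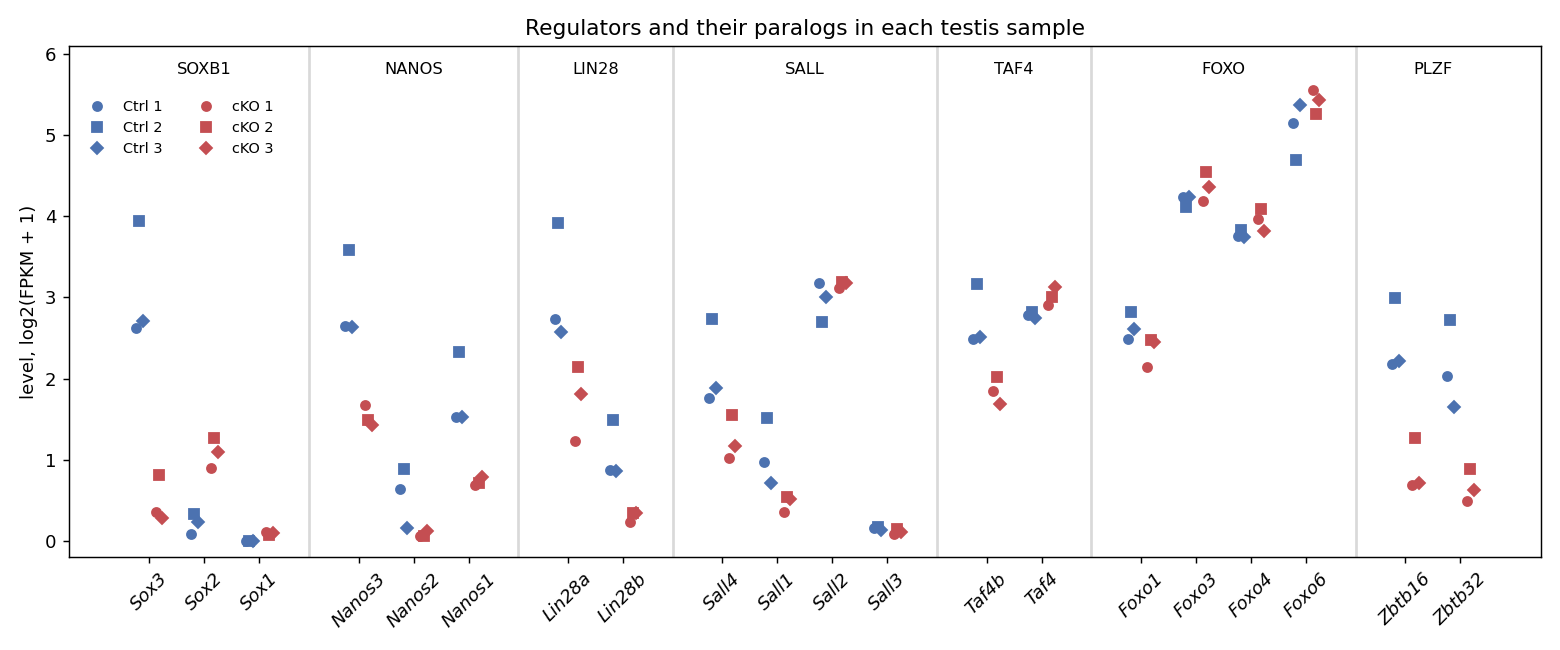
Level of the regulators and their paralogs, as log2(FPKM + 1), in the 3 Ctrl samples (blue) and 3 cKO samples (red), grouped by family. The cKO points lie below the Ctrl points for all members of the NANOS and LIN28 families and for both PLZF relatives, whereas *Sox2* and *Taf4* lie above where *Sox3* and *Taf4b* lie below.

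Other genes of undifferentiated spermatogonia, a list of 18 made up of surface receptors, GDNF targets and transcription factors, were less uniform. Of the 15 tested, 9 were lower without overlap and 1 higher, against 12.8% and 10.3% of all genes tested. Their median log2 fold change was −0.47, with 0 calls in limma. *Pou5f1*, which encodes the pluripotency factor OCT4, had the lowest value, at 5.54 ± 2.75 FPKM (SD, n = 3) in Ctrl and 1.37 ± 0.388 FPKM (SD, n = 3) in cKO (log2 fold change −1.39, adjusted p-value 0.119 in limma). *T*, which encodes the T-box factor brachyury, had the highest, with 0.267, 0.408 and 0.182 FPKM for Ctrl 1 to 3 and 1.67, 1.32 and 1.06 FPKM for cKO 1 to 3. The groups of *T* did not overlap, and its log2 fold change was 0.87 (adjusted p-value 0.101 in limma, 0.028 with protein-coding genes alone). *T* was the 1 gene of the list higher without overlap, and it passed the filter of 0.5 FPKM only through its cKO samples. Its p-values and that count are to be read with this limit.

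The complexes and pathways through which the regulators act were compared as fixed lists, and limma called 0 of their genes. Beside TAF4B, 14 TFIID subunits were tested, with a median log2 fold change of −0.19, 3 lower and 1 higher without overlap. Over all genes tested, 12.8% were lower and 10.3% higher without overlap. *Taf9b* had the lowest log2 fold change, −1.24, at 13.8 ± 6.92 FPKM (SD, n = 3) in Ctrl and 4.91 ± 0.727 FPKM (SD, n = 3) in cKO (adjusted p-value 0.140 in limma). *Taf4* had the highest. The 13 subunits of the NuRD complex, to which SALL4 binds, had a median of −0.0050 and log2 fold changes between −0.20 for *Hdac2* and 0.29 for *Chd3*, with 1 lower and 1 higher without overlap. The NuRD genes were thus close to the median of all genes.

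The 12 CCR4-NOT genes, the deadenylase used by NANOS proteins, had a median of −0.03 and ranged from −0.29 for *Cnot1* to 0.26 for *Tob1*, with 1 lower and 3 higher without overlap. For this list and those that follow, the shares over all genes tested were 12.8% lower and 10.3% higher without overlap. In the let-7 pathway, on which LIN28A acts, 12 of 13 genes were tested, with a median of −0.07, 3 lower and 2 higher without overlap. *Lin28b* had the lowest log2 fold change, −0.77, and *Igf2bp2*, which encodes an mRNA-binding protein, the highest, 0.38, at 4.40 ± 0.371 and 6.04 ± 0.590 FPKM (SD, n = 3 each). Its relative *Igf2bp1* was lower without overlap, with a log2 fold change of −0.74. *Lin28b*, at means of 1.15 FPKM in Ctrl and 0.235 FPKM in cKO, passed the filter of 0.5 FPKM only through its Ctrl samples. Its place and the count of lower let-7 genes are to be read with that limit. The 16 genes of the PI3K-AKT-FOXO pathway had a median of 0.13 and ranged from −0.33 for *Pik3cb* to 0.35 for *Foxo6*, with 1 lower and 3 higher without overlap.

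**Figure D4:**
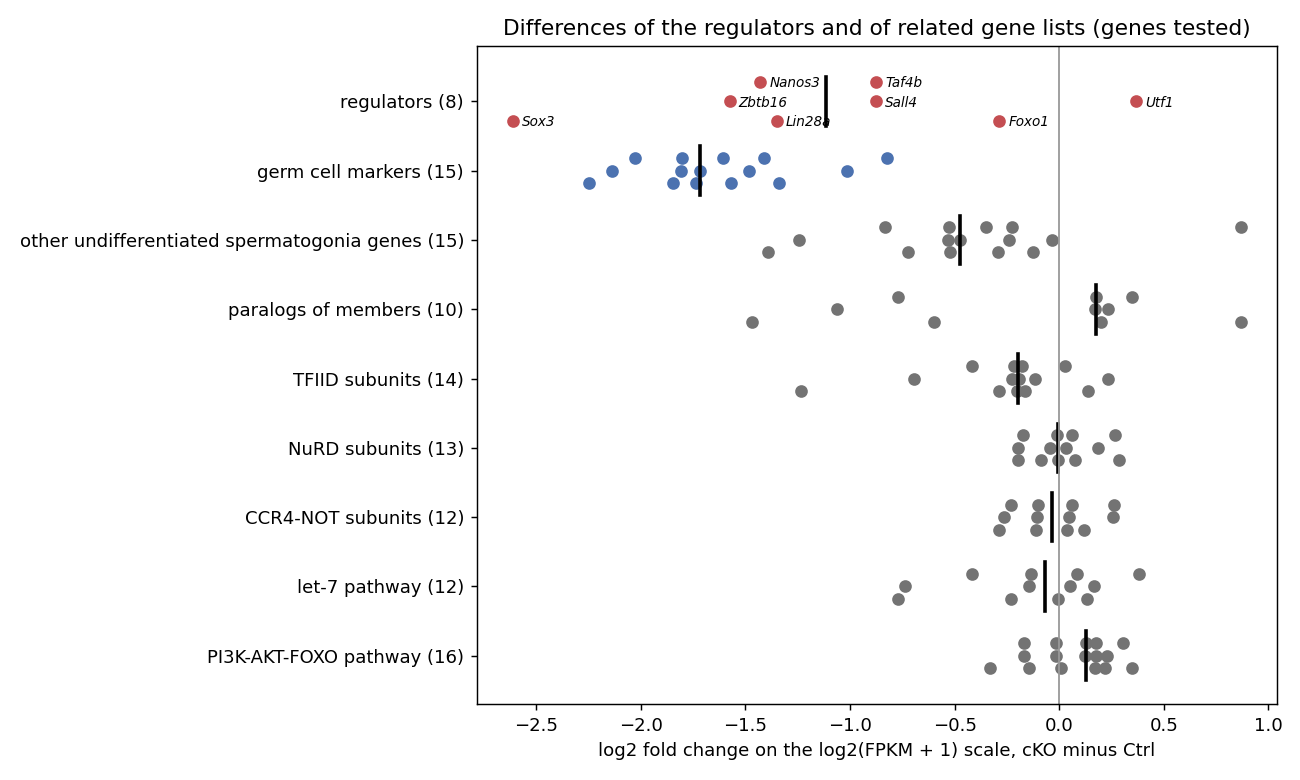
Log2 fold changes of cKO against Ctrl on the log2(FPKM + 1) scale for the 8 tested regulators (red), 15 germ-cell markers (blue) and genes of related lists (grey), 1 point per gene, with the list's median as a black line and the number tested in brackets. The regulators spread from −2.61 for *Sox3* to 0.37 for *Utf1*, a wider span than that of the germ-cell markers, and the NuRD, CCR4-NOT and PI3K-AKT-FOXO lists lie around 0.

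Markers of somatic cells were given as context for a whole-testis sample. The median log2 fold change was −0.05 for 15 Sertoli, 0.31 for 10 Leydig, −0.35 for 6 peritubular myoid, 0.28 for 8 endothelial and 0.03 for 10 macrophage markers. Single Sertoli markers ranged from −0.99 to 0.77, with 4 lower and 2 higher without overlap, against 12.8% and 10.3% of all genes tested. With limma on protein-coding genes alone, 1 Sertoli and 1 myoid marker passed as lower, as 1.33% of genes did. Summed FPKM of the Sertoli markers was between 2575 and 3899 in Ctrl and between 3425 and 3899 in cKO, with the lowest sum in Ctrl 2. Summed Leydig markers were between 689 and 886 in Ctrl and between 929 and 1032 in cKO. None of these somatic lists had a median near that of the germ-cell markers, and the part of cell composition in the values of the regulators was not tested.

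The genes most like each tested regulator were taken as a description, from Pearson correlations of log2(FPKM + 1) over the 6 samples among 12090 protein-coding genes of at least 1 FPKM. The closest to *Sox3* were *Cdkn2a* (r = 0.998), *Nlrp4c* (r = 0.997) and *Tex11* (r = 0.997). The closest to *Taf4b* was *Morc1* (r = 0.999), to *Zbtb16* *Mplkip* (r = 0.998), to *Nanos3* *Lrwd1* (r = 0.999) and to *Utf1* *Rpl6* (r = 0.986). *Tex11* and *Morc1* are genes known from germ cells, and whether the other genes named here mark germ cells was not tested. A high r gives a shared pattern over the samples and not a difference of the same size. *Mplkip* had means of 8.82 FPKM in Ctrl and 7.05 FPKM in cKO, whereas *Zbtb16* stood at 18.8% of Ctrl. *Tex11* had means of 9.96 FPKM in Ctrl and 1.51 FPKM in cKO. The 6 points share their libraries, and for all regulators but *Utf1* they follow the same order of high Ctrl 2, middle Ctrl 1 and 3 and low cKO samples.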

How the data were processed

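Polyadenylated RNA of 3 Ctrl and 3 cKO testes was sequenced in paired ends (Illumina NovaSeq). The authors aligned reads to mm10 with HISAT2 (version 2.0.5), counted them per gene with featureCounts and deposited FPKM values with gene lengths and GRCm38 coordinates. The annotation release and strand setting were not given in the sources used here. FPKM times gene length gave whole reads (within 0.01) for 100% of values, so reads were recovered.

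The 16206 genes averaging 0.5 FPKM or more were tested on log2(FPKM + 1) with limma 3.58.1 in R 4.3.3, with a mean-variance trend, no covariate, two-sided p-values and Benjamini-Hochberg adjustment at 0.05. Limma voom with TMM factors on recovered reads was an alternative. The code was tested on simulated data. Exon structures came from GENCODE vM21 (54409 identifiers matched, 53499 with the same coordinates). The members and lists were chosen with earlier results of these data known. Named were all members, *Srsf1*, per related list the called genes or else those with the lowest and highest log2 fold change, per marker list at most 2 genes of highest mean FPKM, and the 3 genes most like a member. *Fam241b*, *Igf2bp1* and the families said to be looked at afterwards were added. The reads carry no molecular identifiers, so intervals cover counting error only.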

Additional observations from a re-analysis of the deposited data

How the results depend on the processing

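The log2 fold changes of the 8 tested regulators kept their sign under all 16 alternatives, where leaving out a sample could have changed it only for *Utf1*, the others having no overlap between groups. The number of genes called lower and higher by limma, 0 and 0 as reported, was 1 and 4 with TPM, 0 and 1 without a mean-variance trend, 176 and 37 with protein-coding genes only, 58 and 22 with voom on recovered reads and 195 and 53 with voom from 10 reads, the last added after the data were seen. Both stayed at 0 with quantile normalization, without a filter, with a minimum mean of 1 FPKM and with a pseudocount of 0.1. Regulators called lower, 0 as reported, were 3 with protein-coding genes only, 1 with voom and 4 with voom from 10 reads, and 0 with TPM, without the trend and in the 4 settings just named. The protein-coding setting tested fewer genes and also estimated the mean-variance trend from those genes alone. At the same log2 fold change, *Nanos3* had an SE of 0.255 and an unadjusted limma p-value of 0.000743 in the main fit. In the protein-coding setting these were 0.237 and 0.000224. The cause of the differences between settings was not tested. Leaving out 1 sample gave 0 to 15 genes lower, 0 to 3 higher and 0 to 1 regulators lower. The highest counts came without Ctrl 2 (15 lower, 3 higher), when *Sox3* was called, and without Ctrl 3 there were 2 lower and 3 higher.

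The level of *Zbtb16* relative to the germ-cell markers, 0.06 as reported, was reversed to −0.35 with a pseudocount of 0.1, −0.19 with TPM, −0.44 without a pseudocount and −0.041 without Ctrl 2, within a range of −0.041 to 0.12 when single samples were left out. Relative to *Ddx4* and *Dazl* alone it was 0.41, and *Sox3* moved from −0.97 to −0.63, *Lin28a* from 0.29 to 0.63 and *Nanos3* from 0.21 to 0.55, so the sizes depend on the marker set. The other 7 regulators kept their sign on this measure.

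With the replicate number as a block, limma called 84 genes lower and 14 higher, among them 2 regulators, *Sox3* (adjusted p-value 0.029) and *Zbtb16* (0.027). Same-numbered samples deviated together with correlations of only 0.066, 0.016 and 0.088, and the labels do not say that the number marks a pair, so the samples share only a number.

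Depth limited *Neurog3* and *Nanos2*, with 75 and 46 reads in all samples together. With 3 samples per group, an exact permutation test could not go below p = 0.1.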
